A study of Mus musculus with 9 samples.

Results

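Core regions are stretches of the mouse genome at which UBTF was called among the strongest sites outside the ribosomal DNA (rDNA) in each of 6 libraries. UBTF is a protein with several HMG boxes, which bend and bind DNA with little regard to its letters, and it coats the active rDNA repeats and keeps them open for RNA polymerase I. Its amount on the rDNA separates repeats that can be transcribed from silent ones, and it has also been found at genes of RNA polymerase II, among them histone genes. Chromatin immunoprecipitation of UBTF followed by sequencing (ChIP-seq) was made from primary pre-B cells of C57BL/6 mice, sorted from bone marrow. The labels give high B220, low IgM and low IgD for all stages, while the published methods give that gate for wild type and premalignant cells and describe the malignant cells as positive for B220 and negative for IgM and IgD. There were 3 stages, wild type, premalignant and malignant, with 2 UBTF libraries each, labelled replicates 1 and 2, and 3 input samples that were not analysed here. Premalignant and malignant mice carried the Eµ-Myc transgene as heterozygotes, in which an immunoglobulin enhancer drives Myc in B cells and lymphoma follows. Wild type and premalignant mice were 4 to 6 weeks old, and malignant mice were taken once lymphoma had arisen, at 10 to 20 weeks, so that age and stage cannot be told apart for the malignant group. By the published methods, wild type and premalignant cells came from females and malignant cells from both sexes. Peak lists hold no expression values, and the sorted cell type was therefore not checked against its markers.

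The members were chosen by their scores. Peaks outside rDNA were ranked by the peak caller's score within each library, rank 1 being the best, and the best 20000 of each were kept. Of the 20000 best autosomal peaks of wild type replicate 1, 1798 (8.99%) overlapped a kept peak by at least 1 bp in each of the other 5 libraries. They merged into 1502 core regions, 3.62 Mb in all, with a median length of 2133 bp. Of these regions, 1365 consisted of 1 peak. The ranks thus define the regions and are given as a description only, with no test. They are listed in pairs, replicates 1 and 2 of the wild type, then of the premalignant and then of the malignant libraries. The peak that came closest to failing and was kept had rank 19865 in premalignant replicate 2, and the nearest one that was left out reached rank 20044 in malignant replicate 2.

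Premalignant replicate 2 set much of the limit. Of 1832 wild type replicate 1 peaks that were shared with all but 1 library, 1118 were absent only from its kept list, 319 only from that of wild type replicate 2, 275 from malignant replicate 2, 88 from malignant replicate 1 and 32 from premalignant replicate 1. Without premalignant replicate 2 there were 2558 core regions. Libraries also differed technically. The narrowest peak outside rDNA measured 240 to 260 bp in premalignant replicate 1 and the wild type libraries, called the narrow set here, and 670 to 800 bp in malignant replicates 1 and 2 and premalignant replicate 2, the wide set. These sets are not groups of the study. The lists held between 78074 and 575596 peaks outside rDNA, and the depth behind them is unknown. Between wild type and malignant cells, stage and set cannot be told apart, so values within each set are given for the comparisons by sequence class.

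Sequence at the summits fell into a few recurring kinds, and 5 windows from mm9 are printed to show some of them. All are 5′ to 3′ on the plus strand, 100 bp either side of the summit of wild type replicate 1. The window at chr17:79487444-79487644, in an intron of Qpct, has its longest exact run of the GA dinucleotide, read here as TC, in capitals. The windows at chr16:11144088-11144288 (mmu-mir-689-2) and chr9:56071483-56071683 (mmu-mir-2134-4) are shown together because capitals mark the bases that lie in 24-mers shared by both, on opposite strands. The promoter of Hmgxb4, at chr8:77517698-77517898, has GC boxes (GGGCGG on either strand) in capitals. The window in an intron of Mdga2, at chr12:68160353-68160553, has the letters GAATATGGC in capitals, part of the unit of the mouse major satellite.
Qpct: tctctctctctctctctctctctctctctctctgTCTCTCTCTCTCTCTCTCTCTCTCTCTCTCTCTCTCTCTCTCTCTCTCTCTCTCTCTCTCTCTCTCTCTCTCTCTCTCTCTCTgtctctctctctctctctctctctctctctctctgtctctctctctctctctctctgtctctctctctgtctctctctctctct
mmu-mir-689-2: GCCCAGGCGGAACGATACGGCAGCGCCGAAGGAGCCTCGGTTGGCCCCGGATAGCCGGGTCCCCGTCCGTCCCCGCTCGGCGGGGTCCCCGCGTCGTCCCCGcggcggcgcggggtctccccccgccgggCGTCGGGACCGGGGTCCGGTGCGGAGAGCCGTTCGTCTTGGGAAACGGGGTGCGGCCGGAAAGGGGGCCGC
mmu-mir-2134-4: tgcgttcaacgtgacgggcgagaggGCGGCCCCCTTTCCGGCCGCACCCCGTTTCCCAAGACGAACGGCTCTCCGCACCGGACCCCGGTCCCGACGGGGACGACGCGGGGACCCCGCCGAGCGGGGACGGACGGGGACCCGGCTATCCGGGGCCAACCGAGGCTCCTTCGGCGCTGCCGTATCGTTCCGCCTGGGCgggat
Hmgxb4: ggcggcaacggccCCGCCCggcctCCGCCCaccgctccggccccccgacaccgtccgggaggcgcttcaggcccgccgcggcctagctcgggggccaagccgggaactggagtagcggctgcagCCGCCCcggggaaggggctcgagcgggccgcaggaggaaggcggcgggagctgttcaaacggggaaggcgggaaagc
Mdga2: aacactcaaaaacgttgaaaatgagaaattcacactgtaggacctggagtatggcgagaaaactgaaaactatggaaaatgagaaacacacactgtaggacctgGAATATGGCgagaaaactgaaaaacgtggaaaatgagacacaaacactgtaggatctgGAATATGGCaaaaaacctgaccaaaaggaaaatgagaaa

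To describe all regions in the same way, each window of 100 bp either side of the summit was searched for an exact tandem repeat of at least 40 bp with a unit of 1 to 6 bp. Such a repeat lay in 1033 of 1502 windows (68.8%, exact 95% interval 66.4 to 71.1%), against 69.2% of all 20000 wild type replicate 1 peaks, which are not merged. Before merging, 63.3% of peaks shared by all 5 other libraries had one, against 58.8% of those shared by 4 and 82.6% of those shared by none. Among the 1033 windows, the GA dinucleotide made up 725, the telomere hexamer 130 and other units 178. The latter were led by ACAG with 62, AC with 29 and AGGC with 17. Of the windows without a tandem repeat, 68 had a GC content of at least 65% and are called GC-rich, and 401 did not. Most of the latter held shorter GA runs. Runs of at least 4 GA dinucleotides filled 25% or more of the window in 331 of 401 (82.5%), against 53.9% of the wild type replicate 1 peaks of that kind. What lay between the runs was not tested. The median GC content was 48.8% over all core windows.

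Telomere repeats, the hexamer arrays that cap chromosome ends and also occur inside mouse chromosomes, had the highest share of core peaks of the 5 classes. Of 142 wild type replicate 1 peaks on telomere repeats, 135 (95.1%, exact 95% interval 90.1 to 98%) were core, against 7.64% of GA repeats, 6.31% of other tandem repeats, 9.52% of GC-rich peaks and 11.0% of the rest, and 8.99% of all peaks. Intervals cover counting error only. Since good ranks favour sharing, the shares were also read within bins of rank. Between ranks 1001 and 3000, 36 of 36 telomere peaks were core, against 222 of 1233 GA peaks (18%) and 13 of 25 GC-rich peaks. Beyond rank 12000, 4 of 7 telomere peaks were core, against 1.75% of all 8566 peaks there. Leaving out 1 library at a time gave between 130 and 132 telomere regions, whereas GA regions went up to 1361 without premalignant replicate 2.

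**Figure D1:**
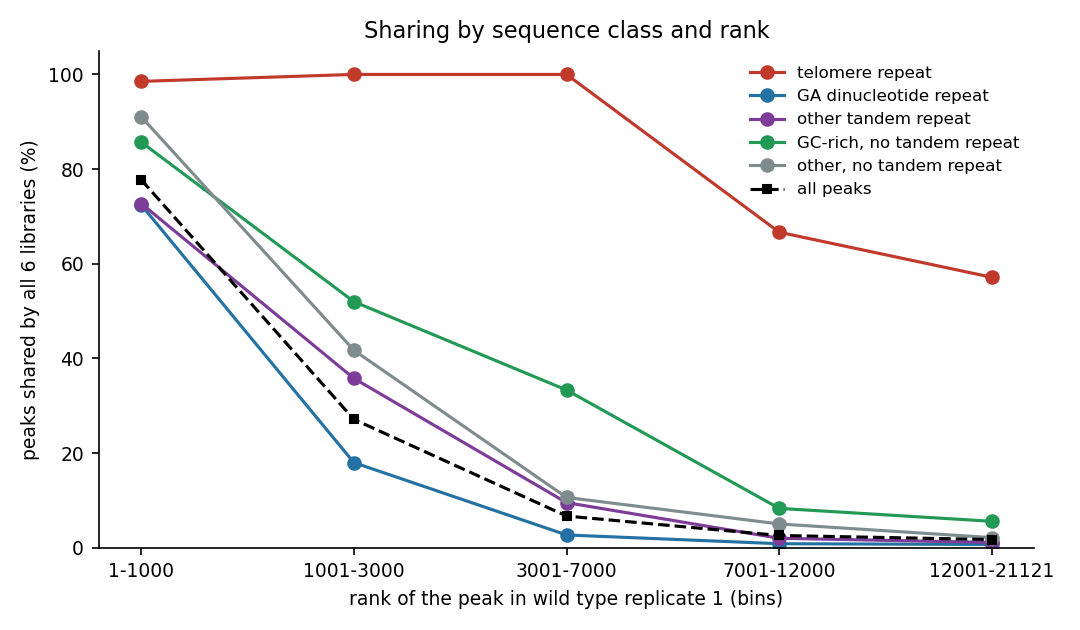
Percent of wild type replicate 1 peaks shared by all 6 libraries (y axis) in 5 bins of their rank (x axis), by sequence class, with all peaks as a dashed line. Telomere peaks stay at or above 57.1% in each bin, while all peaks together fall from 77.8% to 1.75%.

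By their position in mm9, the telomere regions were not mainly at chromosome ends. Only 2 of the 130 had their summit within 1000 bp of the last base of the chromosome sequence, on chromosomes 5 and 11. The other 128 lay elsewhere in the sequence. Of the 130, 82 lay in intergenic sequence and 43 in introns. How the mapping placed reads of telomere repeats, including any from chromosome ends, was not tested. Their repeats had a median length of 64.5 bp. Over the whole window, flanks included, the 24-mers had a median of 1 copy in mm9 in 84 of the 130 and of 10 or more in 25. Among the best regions many had more, such as a median of 1714 copies at Dopey2. Among the best were arrays in introns of Dopey2 (ranks 27 and 21, 15 and 10, 11 and 8) and of Greb1 (31 and 23, 14 and 9, 12 and 7). In both, the malignant ranks were better than the wild type ranks, with the premalignant ranks between them or among the malignant ones.

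GA repeats were the largest class and of high copy number. Of 725 GA regions, 594 (81.9%) had windows whose 24-mers occurred a median of 10 or more times in mm9, against 48.1% of all wild type replicate 1 GA peaks. How the mapping placed reads of such stretches was not tested. The best GA region, in an intron of Qpct, which encodes glutaminyl cyclase, had ranks 8 and 11, 10 and 106, and 8 and 75. It ranked worst in premalignant replicate 2 and malignant replicate 2, as did the GA regions nearest to SNORA17 on chromosome 2 (9 and 8, 11 and 168, 31 and 82) and to Gm11500 (6 and 13, 9 and 151, 36 and 97). Over all 725, the median ranks were 707 and 719, 816 and 4260, and 1092 and 1656.

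The 2 best regions shared sequence with each other. The region at chr16:11143009-11145606 held rank 2 in wild type replicate 1 and rank 1 in the other 5 libraries. Whether it resembles the rDNA repeat was not tested. It lies in an intron of Zc3h7a, on the microRNA annotation mmu-mir-689-2, whose start is 30 bp from the summit. The region at chr9:56070401-56072722, on mmu-mir-2134-4 in C230081A13Rik, had ranks 3 and 3, 3 and 2, and 4 and 2. These regions shared 316 24-mers, as the capitals in the printed windows show. At least 100 24-mers of the chromosome 16 region were found in 5 core regions in all. Besides that on chromosome 9 these were one on mmu-mir-2134-1 (153 shared 24-mers; ranks 1062 and 2024, 432 and 193, 224 and 137), one on chromosome 13 that is also annotated mmu-mir-2134-4 (143), one on mmu-mir-2134-2 (109) and one in an intron of Col6a6 (106). Of the wild type replicate 1 peaks elsewhere that reached 100 shared 24-mers, 5 of 5 were core, against 8.99% of all 20000.

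A separate family was led by the region at chr16:57390219-57393548, in an intron of Filip1l and 2610528E23Rik, with ranks 1 and 6, 2 and 42, and 2 and 43. It shared at least 100 24-mers with 8 other core regions. Of the wild type replicate 1 peaks of that kind, 12 of 15 were core, against 8.99% of all 20000. The best of the 8, at chr15:86024192-86026696, shared 321 and had ranks 127 and 579, 38 and 378, and 16 and 490. In introns of Arhgap21 (318 shared), and Jarid2, a partner of Polycomb complexes (237), the ranks were 4582 and 6979, 1658 and 203, 76 and 1553 for the former and 1349 and 6323, 452 and 286, 53 and 336 for the latter. Malignant replicate 1 held the best rank of the 6 in each of these 3 regions. Both malignant ranks were better than both wild type ranks in 4 of the 9 regions of the family, and the reverse held in 0. Over the 12865 wild type replicate 1 peaks with an overlapping peak in all 6 full lists, the shares were 7.10% and 61.7%. Values within the narrow and wide sets were not counted for the family, so nothing is read from these counts.

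The region at chr6:3149767-3152463, intergenic, had ranks 4 and 52, 4 and 77, and 3 and 115, so replicate 1 was better than replicate 2 in every stage. Of its 2674 24-mers, 599 also lie at chr17:39979048-39985772, which holds the gene AY036118 and the 6000 bp before it, and beside which RefSeq (GRCm38.p6) names the rRNA-related pseudogene Rn18s-rs5. That stretch shared 0 24-mers with the regions at chr16:11143009-11145606, chr9:56070401-56072722, chr16:57390219-57393548 and chr3:5859329-5861826. It is not the whole rRNA unit. The likeness of the chromosome 6 region and the other leading regions to the rDNA repeat was not tested, since the repeat sequence was not used here.

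**Figure D2:**
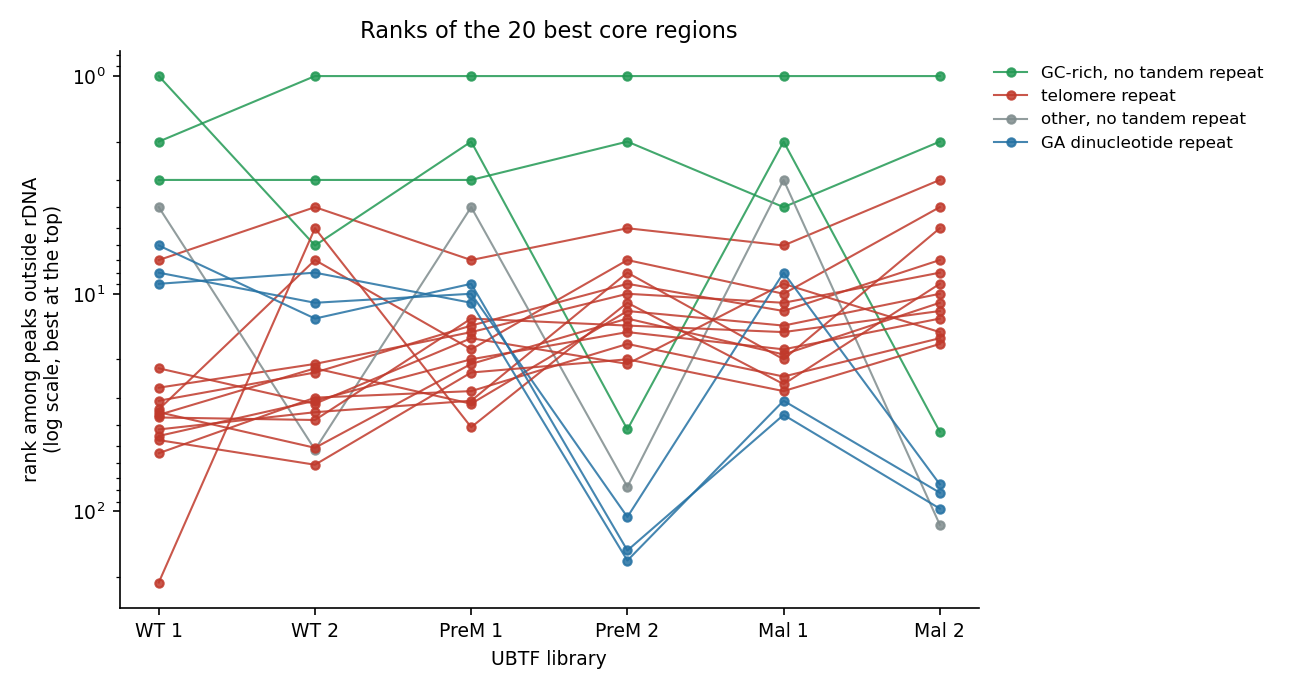
Rank of the 20 best core regions by geometric mean (y axis, log scale, best at the top) in each of the 6 UBTF libraries (x axis; WT, wild type; PreM, premalignant; Mal, malignant), 1 line for each region, coloured by sequence class. The 3 GA regions and 2 others drop to ranks 42 to 168 in PreM 2 and Mal 2, in which the telomere regions keep ranks of 21 or better.

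The core regions were placed on genes by their summit. Of 1502, 911 (60.7%) were intergenic, 486 (32.4%) in introns, 99 (6.59%, exact 95% interval 5.39 to 7.97%) within 1000 bp of a transcript start and so called promoters, 5 in untranslated regions and 1 in a coding exon. Promoters thus made up a share close to that among all wild type replicate 1 peaks (6.65%) and above their share of the bases of chromosomes 1 to 19 (4.17%). Before merging, peaks shared by all 5 other libraries were at promoters in 13.2%, against 4.91% of those shared by 4 and 7.25% of those shared by none, and 120 kept summits of wild type replicate 1 lie in 1 region of 5S rRNA genes described below. Nearest starts belonged to protein-coding genes in 80 of the 99 regions and to microRNAs in 9. The density was 0.608 core regions per Mb, highest on chromosome 6 (0.836) and lowest on chromosome 19 (0.522).

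GC-rich regions lay mostly at promoters. Of 68, 55 (80.9%) lay at promoters, against 46.9% of all GC-rich wild type replicate 1 peaks, and 51 at protein-coding starts, a median of 221 bp away. Their median GC content was 76.1% with a median of 26.5 CpG dinucleotides in the window, against 67.7% and 15 in GC-rich wild type replicate 1 peaks and 57.7% GC at 67112 protein-coding starts. Since the class begins at 65% GC, a median above that of the starts was set by its definition. The windows of 57 of the 68 were single copy. This class leaned on wild type replicate 2: without it there were 154 GC-rich core regions.

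Motifs were searched on both strands of the windows. The GC box (GGGCGG) was in 54 of the 68 GC-rich core windows (79.4%), against 68.6% of GC-rich wild type replicate 1 windows and 34.7% of protein-coding starts. The YY1 letters AAGATGGC were in 3 of 68 (4.41%), near the 2.97% of protein-coding starts and below the 39.8% of GC-rich wild type replicate 1 windows. The ETS letters CCGGAAG were in 5 of 68 (7.35%), against 8.36% of protein-coding starts and 27.8% of GC-rich wild type replicate 1 windows. Of the latter windows 54.7% had 10 or more copies in mm9, against 8.82% of the GC-rich core windows. A run of 4 blocks of at least 3 G, 1 to 7 bases apart, which can fold into a G-quadruplex, was in 24 of 68 (35.3%), against 22.9% of GC-rich wild type replicate 1 windows and 14.5% of protein-coding starts, and in each of the 130 telomere windows, whose hexamer contains it by construction. The E-box CACGTG, the site of MYC and MAX, was in 0 of 68 and in 9 of all 1502 windows (0.599%), against 1.2% of wild type replicate 1 windows and 4.95% of protein-coding starts. These matches are letters in a window and not sites. The protein-coding starts were not matched to the GC-rich class for GC content, so nothing is read from the differences from them.

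Among protein-coding genes, the best promoter without a tandem repeat was that of Ino80d, a subunit of the INO80 chromatin remodelling complex. This promoter had ranks 110 and 112, 103 and 53, and 109 and 49. It was the most even of the 15 best promoters, with a highest rank 2.29 times the lowest. The start of Tlk2, a kinase acting in chromatin assembly, had ranks 356 and 347, 234 and 40, and 117 and 58. Both malignant ranks were better than both wild type ranks here, as at Hmgxb4, an HMG-box protein whose window is printed above (670 and 1332, 884 and 126, 276 and 145).

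The other promoters covered varied functions. Elf1, an ETS factor of lymphoid cells, had ranks 632 and 1184, 754 and 129, and 587 and 154. Nrf1, which activates genes of mitochondrial function, had ranks 2061 and 2105, 2072 and 232, and 775 and 270. Socs6, of the suppressors of cytokine signalling, had ranks 1964 and 3235, 1381 and 213, and 676 and 223. At these 3 both malignant ranks were better than both wild type ranks, and premalignant replicate 2 was better than either malignant library. Nipbl, the loader of cohesin, differed, with ranks 1094 and 3758, 1020 and 1097, and 342 and 1152, and so did Kdm4b, a histone demethylase, with 1527 and 4019, 1219 and 610, and 1968 and 534, where wild type and malignant ranks overlapped. Gnl2, a nucleolar GTPase of large ribosomal subunit assembly, had its worst rank in malignant replicate 2 (718 and 754, 407 and 2297, 439 and 5071). Malignant replicate 2 was best of the 6 libraries at 2810407C02Rik, Scube2 and Mark2, with ranks of 158, 354 and 256.

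**Figure D3:**
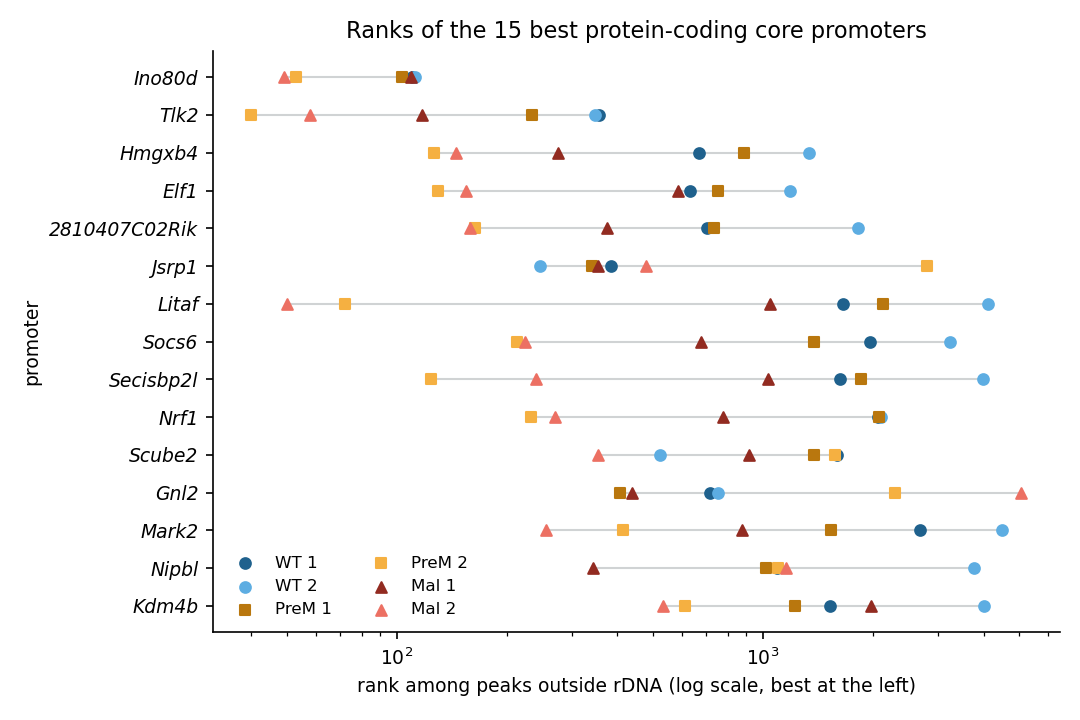
Ranks (x axis, log scale, best at the left) of the 15 best core promoters of protein-coding genes without a tandem repeat (y axis) in the 6 UBTF libraries, 1 symbol for each library, with a grey line from the lowest to the highest. At Hmgxb4, Socs6 and Nrf1 the wild type and PreM 1 symbols lie to the right of those of PreM 2, Mal 1 and Mal 2.

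Genes with a transcript start within 1000 bp of a core region numbered 217 of 34653 (0.626%), or 119 of 21418 protein-coding genes (0.556%). Several lists had no such gene, namely 81 cytosolic ribosomal protein genes, 21 RNA polymerase I genes, 37 nucleolar assembly genes, 13 Myc network genes, 70 replication-dependent histone genes and 20 genes of p53 and apoptosis. At the share over all genes, lists of this length would hold fewer than 1 gene each, so nothing is read from these counts, and Gnl2 is not on the nucleolar list. Of 33 genes of B cell identity only Ikzf1, the Ikaros factor of lymphoid development, had a core region, with ranks 8014 and 18476, 9919 and 12166, and 1100 and 12191. The rank in malignant replicate 1 was better than the other 5. Small RNA genes gave 14 of 1468 microRNAs (0.954%), which include the families above, 4 of 1331 small nuclear RNAs, each annotated U6, and 1 of 1458 small nucleolar RNAs. Olfactory and vomeronasal receptor genes gave 3 of 1678.

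Annotated rRNA genes outside rDNA formed the exception, with 52 of 307 (16.9%), but at 2 regions. The cluster of 5S rRNA genes, which RNA polymerase III transcribes, was covered by 1 region of 88702 bp at chr8:126060421-126149122. In the same order of libraries it held 120 and 30, 155 and 37, and 127 and 69 kept summits. Its best ranks were 3640 and 8821, 3107 and 1935, and 255 and 574, so that both malignant ranks were better than the other 4. The second region, at the single gene n-R5s194 on chromosome 3, had ranks 5078 and 16620, 611 and 11712, and 740 and 12705. Replicate 1 was better than replicate 2 in each stage. Of 4 core regions over 10 kb the other 3 lay near Hrh1 and Atg7 on chromosome 6 and were GA repeats, the longest of 74146 bp with 23 and 28, 30 and 11, and 62 and 15 kept summits.

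The spread of ranks between libraries was wide. The highest rank of a region was a median of 8.67 times its lowest, with quartiles of 4.98 and 15. The ratio was below 3 in 116 regions and above 30 in 124. Premalignant replicate 2 gave the worst rank in 705 of 1502 regions (46.9%), and without it the median ratio was 4.94 over 2558 regions. Across the regions, ranks of wild type replicate 1 had a Spearman correlation of 0.859 with wild type replicate 2, 0.886 with premalignant replicate 1, 0.754 with malignant replicate 1, 0.475 with malignant replicate 2 and 0.351 with premalignant replicate 2. Premalignant replicate 2 was closest to malignant replicate 2 (0.693). Regions are not independent replicates, and repeats of 1 kind share their sequence.

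The most even regions were not the best ones. The lowest ratio, 1.5, belonged to a GA region at chr4:52506051-52508183, with ranks 17890 and 13429, 12856 and 11939, and 12157 and 14425. Next was an ACAG repeat in an intron of Hal, which encodes histidine ammonia-lyase, with a ratio of 1.54 and a worst rank of 309 in malignant replicate 2. Another ACAG repeat, in an intron of 1700006A11Rik, had ranks 180 and 194, 228 and 244, and 160 and 281. The largest ratio, 519, was at chr7:7229659-7232639, with ranks 703 and 631, 503 and 6747, and 13 and 1185, which rests on malignant replicate 1. The GA region at chr5:82375123-82377277 ranged from rank 58 in wild type replicate 1 to 13207 in premalignant replicate 2.

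Satellite-like regions were also among the least even. The letters GAATATGGC, counted on both strands, occurred in 3 core windows and in 10 of the 20000 wild type replicate 1 windows (0.05%), 4 of those 10 in core peaks. The major satellite forms the heterochromatin beside mouse centromeres. Mdga2 had ranks 2659 and 2917, 2146 and 36, and 837 and 21. Litaf, where the summit lies 453 bp from a transcript start of this endosomal membrane protein, had ranks 1655 and 4113, 2119 and 72, and 1042 and 50. The third, nearest to Kcnh5, had ranks 2768 and 6027, 3028 and 66, and 1046 and 34. In each, premalignant replicate 2 and malignant replicate 2 were at 72 or better and all other libraries at 837 or worse. The search letters were chosen after these values had been seen. A region on chromosome 4 nearest to SNORA17, at chr4:64158003-64160113, had the same order of libraries, with ranks 6547 and 9752, 5437 and 63, and 623 and 63, and lacked these letters in its window.

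Ranks were set side by side between stages within each class. Both malignant ranks were better than both wild type ranks in 232 core regions (15.4%) and worse in 624 (41.5%), against 7.10% and 61.7% of the 12865 wild type replicate 1 peaks that had an overlapping peak in all 6 full lists. Because the ranks also chose the members, nothing is read from the pooled counts. By class, the malignant ranks were better in 105 of 130 telomere regions (80.8%) and worse in 0, better in 32 of 68 GC-rich regions (47.1%) and worse in 1, and better in 14 of 725 GA regions (1.93%) and worse in 434 (59.9%). In the same classes of the 12865 peaks the malignant ranks were better in 77.3%, 24.7% and 0.635% and worse in 0%, 6.88% and 81.0%. Other tandem repeats had 43 of 178 regions better (24.2%) and 35 worse (19.7%), against 4.81% and 64.4%. The 401 remaining regions had 38 better (9.48%) and 154 worse (38.4%), against 11.1% and 46.6%. Telomere regions had median ranks of 993 and 886, 458.5 and 93.5, and 282.5 and 87.5. GC-rich regions had 4091.5 and 5940.5, 3090 and 1035.5, and 1469.5 and 1322.

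Within the sets the order was partly different. In the narrow set, premalignant replicate 1 was better than both wild type libraries in 100 of 130 telomere regions (76.9%), 35 of 68 GC-rich regions (51.5%) and 178 of 725 GA regions (24.6%), against 75.2%, 37.9% and 26.9% of the 12865 peaks in these classes and 30.2% of all. It was worse than both in 10, 6 and 329 of these regions in the same order (7.69%, 8.82% and 45.4%). Among the 12865 peaks it was worse in 8.51%, 18.8% and 47.8% of these classes and 39.7% of all. In the wide set, both malignant libraries were better than premalignant replicate 2 in 6 telomere regions (4.62%), 16 GC-rich regions (23.5%) and 475 GA regions (65.5%), against 4.96%, 40.9% and 62.3% in these classes and 56.4% of all. Premalignant replicate 2 was better than both in 21 telomere regions (16.2%), 23 GC-rich regions (33.8%) and 74 GA regions (10.2%), against 15.6%, 18.9% and 9.95% in these classes and 11.9% of all. Each set has 1 premalignant library, and the ranks also chose the members, so nothing is read from these counts.

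**Figure D4:**
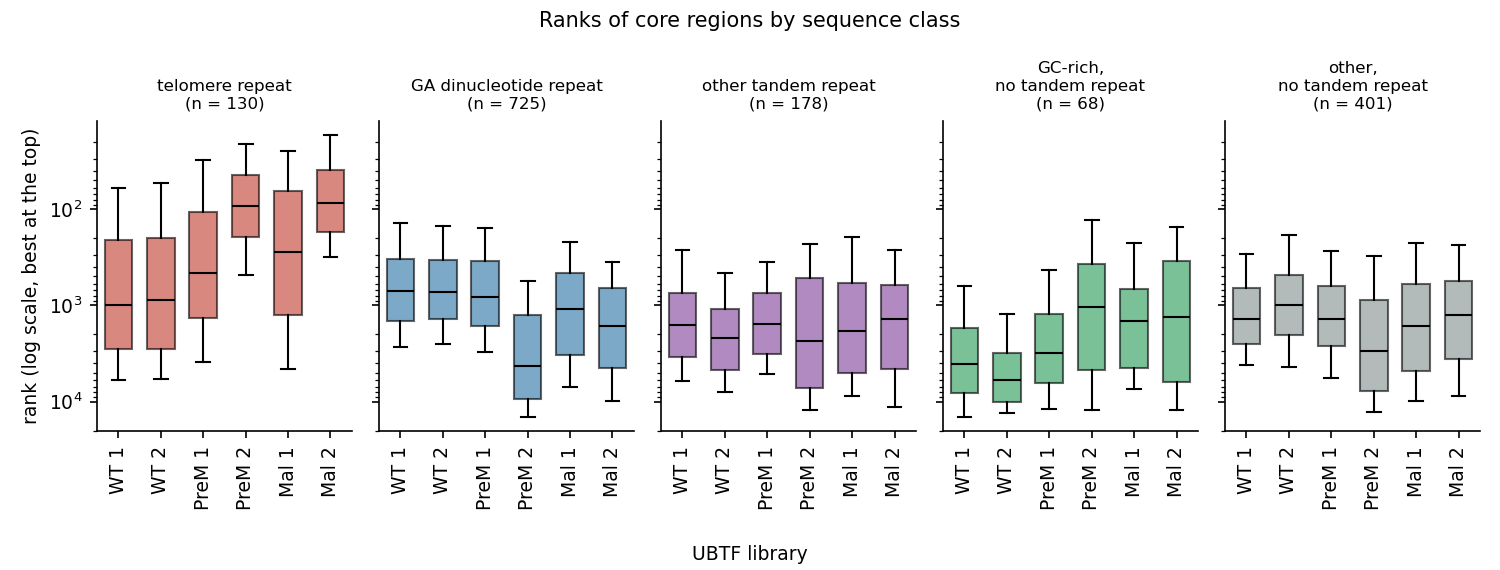
Ranks of core regions (y axis, log scale, best at the top) in the 6 UBTF libraries (x axis), 1 panel for each sequence class, with the number of regions in the title; boxes span the quartiles with the median as a line, and whiskers reach the 10th and 90th percentiles. Telomere regions reach medians of 93.5 and 87.5 in PreM 2 and Mal 2, while GA regions fall to a median of 4260 in PreM 2.

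Summits and widths were not used by the rule, apart from the 1 bp of overlap, and were compared to see how precisely the libraries placed the same site. The best overlapping peak of a core region had its summit a median of 6 to 10 bp from that of wild type replicate 1 in each of the other 5 libraries. Within 100 bp lay 97.1% of summits in wild type replicate 2, 97% and 91.3% in premalignant replicates 1 and 2, and 95.6% and 92.4% in malignant replicates 1 and 2. For wild type replicate 1 peaks that were not core but overlapped a kept peak, the same shares were 94.9%, 89.2%, 27.0%, 77.9% and 60.8%. Kept peaks of premalignant replicate 2 had a median width of 6904 bp, against 2073 to 3344 bp in the others, which allows distant summits to overlap.

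**Figure D5:**
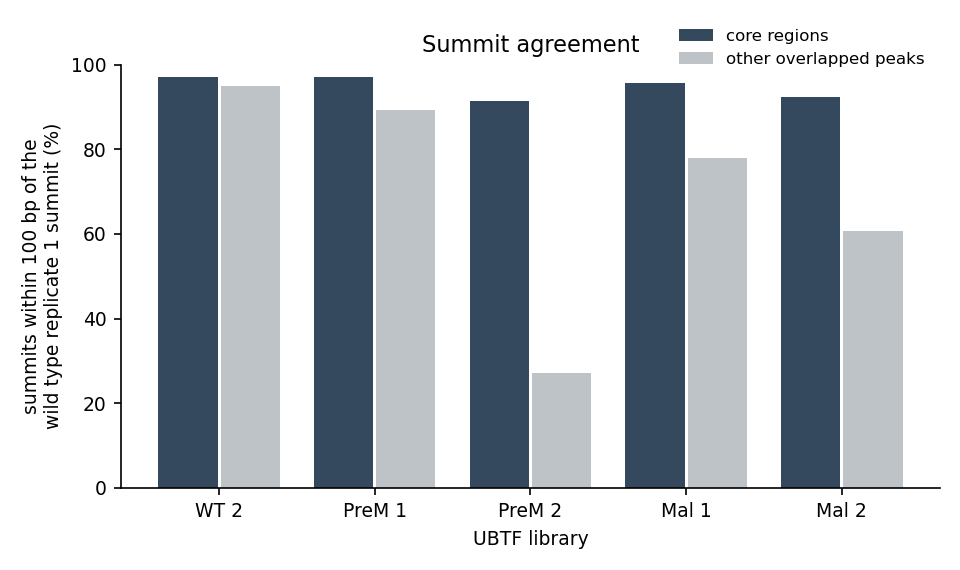
Percent of best overlapping peaks with a summit within 100 bp of the wild type replicate 1 summit (y axis) in the other 5 UBTF libraries (x axis), for core regions (dark bars) and for other overlapped wild type replicate 1 peaks (light bars). Core regions stay between 91.3% and 97.1%, while the others fall to 27.0% in PreM 2.

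Peaks at core regions were of similar width in all stages. Median widths were 2132 and 2144 bp, 2115 and 2101 bp, and 2108 and 2108 bp, in the order of the ranks above. Premalignant and malignant means (2108 ± 9.90 and 2108 ± 0 bp, SD, n = 2 each) lay 30 bp under the wild type mean of 2138 ± 8.49 bp, with an exact permutation p of 0.333 for both, two-sided, which is the smallest that 2 libraries against 2 allow. The 2 later stages had a difference of 0 bp (exact permutation p = 1). With the mean over regions in place of the median, the differences were -30.0 bp for premalignant minus wild type, -1.21 bp for malignant minus wild type and 28.8 bp for malignant minus premalignant. A core region held a mean of 1.18 ± 0.0278 kept summits in the wild type, 1.16 ± 0.0946 in the premalignant and 1.19 ± 0.0711 in the malignant libraries (SD, n = 2 each). These differed by less than the spread between replicates, with an exact permutation p of 0.667 between the later stages and of 1 between each of them and the wild type.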

How the data were processed

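UBTF ChIP-seq peak lists of 6 libraries were analysed. By the published methods the authors aligned 50-bp paired reads with bowtie2 to mm9 joined to 1 copy of the rDNA repeat, removed duplicates with Picard (version 1.110 in the submitters' processing notes, with CASAVA 1.8.2) and called peaks per library with SPP at default options. The deposited lists hold a peak score in the caller's units, used here only for ranking, and a q-value on a linear scale. The deposited start, end and summit columns are positions in mm9. Lists give no counts, so the depth is unknown.

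Regions were sought as described in the report. NCBIM37 sequence and GENCODE M1 (both mm9) gave windows, 24-mer copy numbers and annotation. The named regions were the 20 best by geometric mean rank, the 15 best protein-coding promoters without a tandem repeat, the 5 with the lowest and the 5 with the highest rank ratio, and up to 6 genes of each of 12 gene lists. Members and lists were chosen with earlier results of these data known, and the sequence classes, families and satellite letters after the values had been seen. Library values were compared by two-sided exact permutation tests. Shares carry exact Clopper-Pearson intervals at the 95% level. Alternatives were other list lengths, overlaps, anchor lists, windows and left-out libraries. Python 3.11.15, numpy 2.4.6, scipy 1.17.1, pandas 2.3.3, numba 0.67.0, pysam 0.24.0, samtools 1.23.1 and matplotlib 3.10.9 were used, and the scripts were tested on simulated data. Nothing says that replicates with 1 number share an animal; the study calls them biological replicates. The sequence of 1 window is not reported here.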

Additional observations from a re-analysis of the deposited data

Results flagged for a closer look

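Chromosomes X and Y were outside the comparison of core regions. By the same rule, 42 regions on chromosome X and 2 on chromosome Y were shared by the kept lists of all 6 libraries, from 1051 kept wild type replicate 1 peaks there. They were noted because they lie in data outside the main measurement. Of the 44 regions, 26 were GA repeats, 8 other tandem repeats, 2 telomere repeats and 1 GC-rich. They had a density of 0.241 per Mb, against 0.608 per Mb on chromosomes 1 to 19. By the published methods the wild type and premalignant cells came from females, and those libraries also list peaks at both chromosome Y regions. The cause was not tested.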

How the results depend on the processing

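Of 144 alternative values, 115 kept their direction or moved less than their limit (1.5 times for the number of regions, the exact 95% interval of a share or median otherwise). For widths and summits per region only a change of sign could count, since the smallest exact permutation p of 2 libraries against 2 was 0.333. The malignant minus premalignant width was 0 bp, so its 8 alternatives, from -7.0 to 28.8 bp, counted as unchanged by construction. By list length, the best 10000 gave a median rank ratio of 7.27, and the best 40000 gave 2887 regions, 54.4% with a tandem repeat, a median GC content of 49.8%, a ratio of 10.2 and 0.0570 more summits per region in premalignant than wild type libraries. With premalignant replicate 2 as the anchor list, 65% had a tandem repeat. Promoters were 4.59% with 500 bp, 9.59% with 2000 bp, 9.85% with any base of a region and 5.33% with protein-coding transcripts. Tandem repeats were 80.4% from 30 bp and 21% from 60 bp, and GC content was 45.5% with 250 bp either side of the summit.

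Leaving out each library gave 1528 to 2558 regions, 59.3 to 70.1% with a tandem repeat, a GC content of 48.3 to 49.3% and a ratio of 4.94 to 8.12. Differences in summits per region then ranged from -0.0895 to 0.0443 for premalignant minus wild type, -0.0383 to 0.0955 for malignant minus premalignant and -0.0443 to 0.0563 for malignant minus wild type. Without the 4 regions over 10 kb, chosen after the data had been seen, the last was -0.0190. The cause was not tested.

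With the replicate number as a block, the width difference of -30 bp had p = 0.5 for both later stages against wild type (exact sign-flip permutation, smallest possible 0.5), and no call changed. Deviations of same-numbered libraries had correlations across regions of 0.0822 to 0.417 for log2 rank and -0.253 to 0.514 for log2 width. Crossed pairing of malignant and wild type widths, added after the data had been seen, made 0 calls.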
